A study of Rattus norvegicus with 9 samples.

Results

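The cytochrome P450 genes of families 1 to 4 were examined in the livers of 9 rats on Affymetrix expression arrays. They were taken as every gene symbol of the deposited annotation that starts with Cyp and goes on with a family number from 1 to 4 and a subfamily letter. This gave 47 of the 16292 gene symbols on the array, named by 51 of 31042 probe sets, with 3 genes in family 1, 29 in family 2, 4 in family 3 and 11 in family 4. A probe set is the group of short probes that measures one transcript. Each gene was read by the probe set with the highest mean signal among those that name it alone. Another 6 readings came from probe sets that name several genes. Cyp2b1/Cyp2b2 and Cyp2d1/Cyp2d5 are therefore joint readings, and Cyp2c11, Cyp2c12, Cyp2c7 and Cyp4a2 share their probe set with an uncharacterized locus or, for Cyp4a2, also with Cyp4a3. The 47 genes were thus covered by 45 readings. P450 genes of a subfamily are near copies of each other, so a reading may hold signal from its paralogs, and the part of this was not tested.

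Cytochrome P450 enzymes are heme proteins of the endoplasmic reticulum that insert oxygen into their substrates with electrons from P450 oxidoreductase, the product of Por. Families 1 to 3 hold the main enzymes that oxidize drugs, environmental chemicals and steroids, and family 4 holds mostly enzymes that hydroxylate the end of fatty acid chains. In the liver most of them are made by hepatocytes, and several, Cyp2e1 and Cyp1a2 among them, are richest in the hepatocytes around the central vein. Cyp2e1 converts carbon tetrachloride (CCl4) into the trichloromethyl radical, the step that makes this solvent toxic to the liver. In rats several P450 genes differ between the sexes, under the pattern of growth hormone release.

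The arrays compared 3 groups of male Sprague-Dawley rats, with 1 array of frozen liver RNA from each of 3 rats per group, out of larger groups of animals. Vehicle rats (replicates 3, 4 and 5) were the controls. CCl4 rats (replicates 1, 2 and 3) received intraperitoneal CCl4 in olive oil for 8 weeks, a model in which the solvent both injures the liver and meets the enzymes measured here. CCl4+Rot rats (replicates 4, 5 and 6) received the same CCl4 course and, 2 weeks after its first injection, rottlerin at 2.5 mg/kg, which the study used to open BK potassium channels. No group received rottlerin without CCl4, and ages were not given in the sources used here. In whole liver, fewer cells of a type and less RNA per cell cannot be told apart.

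The promoters of 4 members that the results below turn on are shown first: Cyp2e1 as the enzyme that activates CCl4, Cyp1b1 for its difference from vehicle in both CCl4 groups, and Cyp2c11 and Cyp2c12 as the sex-biased pair. RefSeq promoters (build GRCr8, not necessarily that of the array annotation) matched 39 of the 47 symbols. Each sequence runs 5′ to 3′ over the 250 bases before the gene's start. Capitals mark matches on either strand. The letters TATAAA are the usual form of the TATA box, and ATTGAT is the core bound by HNF6, the product of Onecut1. GCGTG is the core bound by the dioxin receptor AHR with its partner ARNT. The letters CCAAT bind the factor NF-Y, and STAT5 binds TTCNNNGAA. None of these strings contains another.
Cyp2e1, chr1:205269717-205269966, plus strand: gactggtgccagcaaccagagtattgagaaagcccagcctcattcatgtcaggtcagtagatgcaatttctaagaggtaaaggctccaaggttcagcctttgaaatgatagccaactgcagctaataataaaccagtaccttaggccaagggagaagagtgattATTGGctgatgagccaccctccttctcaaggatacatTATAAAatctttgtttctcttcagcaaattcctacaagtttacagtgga
Cyp1b1, chr6:21094315-21094564, plus strand: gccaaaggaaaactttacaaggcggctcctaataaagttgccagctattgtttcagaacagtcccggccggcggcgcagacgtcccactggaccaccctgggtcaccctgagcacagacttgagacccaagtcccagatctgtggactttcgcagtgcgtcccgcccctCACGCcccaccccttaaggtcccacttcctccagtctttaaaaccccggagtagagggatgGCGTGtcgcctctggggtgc
Cyp2c11, chr1:246174966-246175215, plus strand: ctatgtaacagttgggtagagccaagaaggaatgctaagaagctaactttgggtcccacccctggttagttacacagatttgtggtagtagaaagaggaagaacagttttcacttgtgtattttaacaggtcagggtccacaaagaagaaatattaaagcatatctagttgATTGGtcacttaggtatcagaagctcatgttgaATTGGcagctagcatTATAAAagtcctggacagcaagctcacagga
Cyp2c12, chr1:248677035-248677284, minus strand: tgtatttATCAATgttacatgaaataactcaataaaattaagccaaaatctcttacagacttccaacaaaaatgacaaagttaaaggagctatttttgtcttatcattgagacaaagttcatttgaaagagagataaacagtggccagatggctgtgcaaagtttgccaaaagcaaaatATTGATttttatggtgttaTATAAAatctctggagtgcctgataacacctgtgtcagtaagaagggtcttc
TATAAA was found in Cyp2e1, Cyp2c11 and Cyp2c12, starting 49, 31 and 52 bases before the start, and not in this window of Cyp1b1. It stood in 12 of the 39 P450 windows (30.8%) and in 12.9% of all 33469 windows of the same length. The Cyp2c12 window held ATTGAT at 243 and 71 bases before the start, and this string stood in 12.8% of the P450 windows against 7.1% of all. The Cyp1b1 window held GCGTG at 81 and 20 bases, a string in 20.5% of the P450 windows and 25.9% of all. CCAAT stood in 43.6% against 34%, and TTCNNNGAA in 7.69% against 7.67%. These matches describe letters only.

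The values are log2 signals that the authors had scaled to a common mean on each array, and a detection call of present, marginal or absent. Of the 45 readings, 35 were called present on all 9 arrays (77.8%, against 36.2% of all probe sets), 7 on some arrays, and Cyp1a1, Cyp2a3 and Cyp2b12 on none. Signals of different probe sets do not rank transcripts, but brightness matters here, since 19 of the 45 readings had a mean log2 signal above 13, as did 1.81% of all probe sets. CCl4 replicate 3 stood apart from the other arrays in its bright and dim range. Its detected probe sets numbered 12714 (15550 to 16849 on the others), and its central spread between the 10th and 90th percentile was 3.77 log2 units over the probe sets present on all arrays (4.45 to 4.72 on the others). It was the lowest of the 9 arrays for 15 of the 19 bright P450 readings and for 422 of all 562 bright probe sets, so for several bright members values after quantile normalization or without this array are also given. Quantile normalization moved the median difference of all probe sets from 0.18 to -0.02 for CCl4 minus vehicle.

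**Figure D1:**
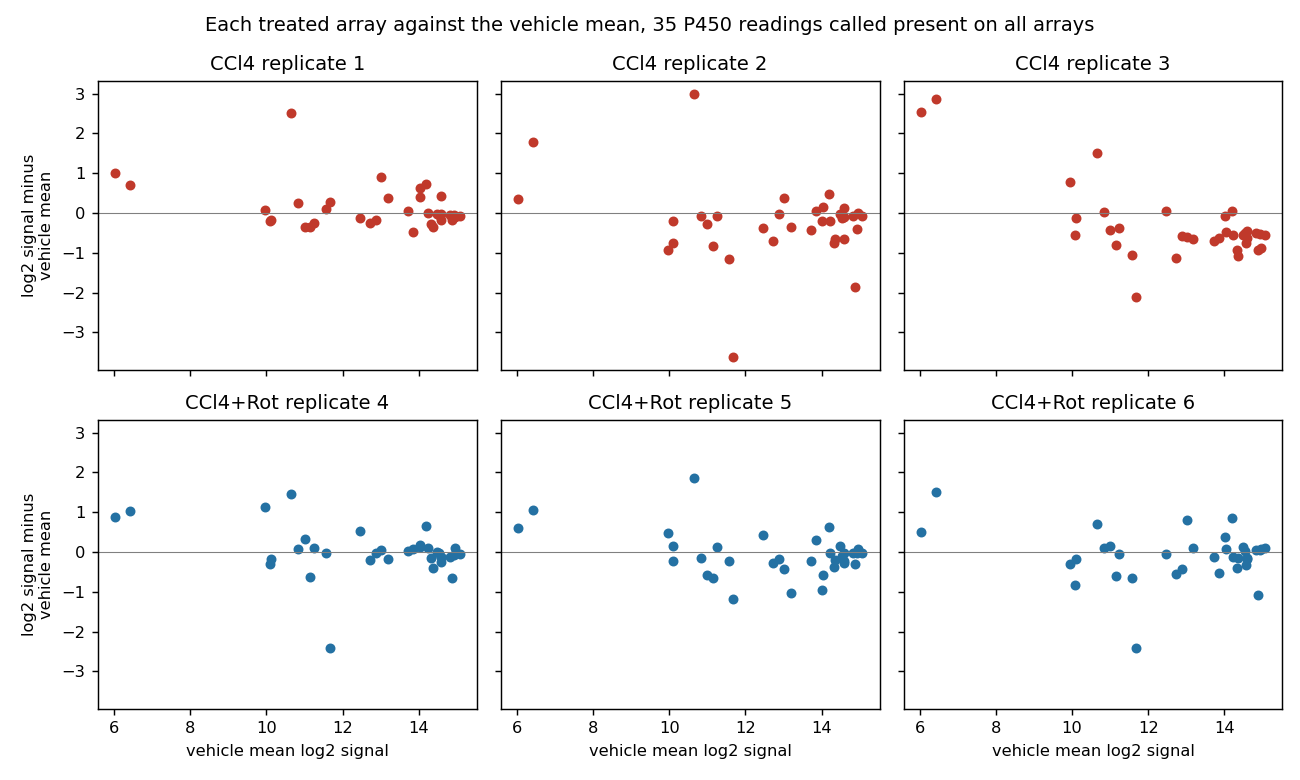
Log2 signal of each treated array minus the vehicle mean (vertical axis) against the vehicle mean log2 signal (horizontal axis) for the 35 P450 readings called present on all 9 arrays; each point is a reading. On CCl4 replicate 3 nearly all readings above a vehicle mean of 13 lie below 0, while on the other arrays they lie on both sides of 0. Some stand far from 0 there too, such as Cyp2c11, at 13.01 on CCl4 replicate 2 against a vehicle mean of 14.88.

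No P450 reading passed the test in any comparison. The test was limma over all 31042 probe sets, with calls made where the adjusted p (Benjamini-Hochberg) was under 0.05 and the difference 1.5-fold or more, and it called 0% of all probe sets for CCl4 minus vehicle, 0.00322% (1 probe set) for CCl4+Rot minus CCl4 and 0.0258% (8) for CCl4+Rot minus vehicle. A second limma fit used robust variances and let the variance follow the signal level, and is called the robust fit below. It called 1.12%, 0.00322% and 0.776% of all probe sets, and again no P450 reading. The differences below are therefore given as measured values that did not pass correction. At an unadjusted limma p below 0.05 there were 10 readings between CCl4 and vehicle (22.2% of the 45, against 12.4% of all probe sets and 14.02% of those present on every array). These were 5 higher in CCl4 (Cyp1b1, Cyp2c12, Cyp2s1, Cyp2u1, Cyp4f17) and 5 lower (Cyp2c11, Cyp2d1/Cyp2d5, Cyp2d3, Cyp2f4, Cyp4f4), where the whole array had 8.64% higher and 3.72% lower. There were 0 between CCl4+Rot and CCl4, against 6.63% of all probe sets and 4.27% of those present on every array. Between CCl4+Rot and vehicle there were 5 (11.1%, against 8.31% and 9.58%): Cyp1b1, Cyp2c22, Cyp2u1 and Cyp4f17 higher and Cyp2f4 lower.

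Counting instead the readings whose 3 arrays of one group all lay beyond the 3 of the other gave 13 between CCl4 and vehicle (28.9%, against 18.3% of all probe sets and 25.4% of those present on every array), 4 higher and 9 lower in CCl4. Between CCl4+Rot and CCl4 there were 4 (8.89%, against 11.6% of all probe sets and 12.9% of those present on every array), Cyp2b3, Cyp2c6v1, Cyp2e1 and Cyp4f6, all higher with rottlerin. Between CCl4+Rot and vehicle there were 11 (24.4%, against 21.1% and 29.6%), 4 higher and 7 lower. With 3 rats against 3, an exact two-sided permutation test cannot go below p = 0.1, so no single gene could pass such a test.

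By family, the median log2 difference between CCl4 and vehicle was 0.72 in family 1 (2 readings detected on any array), -0.29 in family 2 (25), -0.10 in family 3 (4) and -0.16 in family 4 (11). Over all 42 detected readings it was -0.21, beside 0.18 for all probe sets and -0.18 for the 562 bright ones. Of the 40 readings detected in both groups, 13 had higher and 27 lower means in CCl4. Means were lower in CCl4 for 36.8% of all probe sets, 51.3% of those present on every array and 72.6% of the bright ones. The median over 42 was -0.05 after quantile normalization and -0.10 without CCl4 replicate 3. For CCl4+Rot minus CCl4 the medians were -0.14, 0.20, -0.19 and 0.21 in families 1 to 4. Over all 42 it was 0.18 (0.09 after quantile normalization, 0.07 without CCl4 replicate 3), beside -0.12 for all probe sets and 0.13 for the bright ones. For CCl4+Rot minus vehicle the family medians were 0.58, -0.03, -0.15 and 0.07. Family 3 turned from -0.10 to 0.11 for CCl4 minus vehicle after quantile normalization, and no difference between families was tested.

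**Figure D2:**
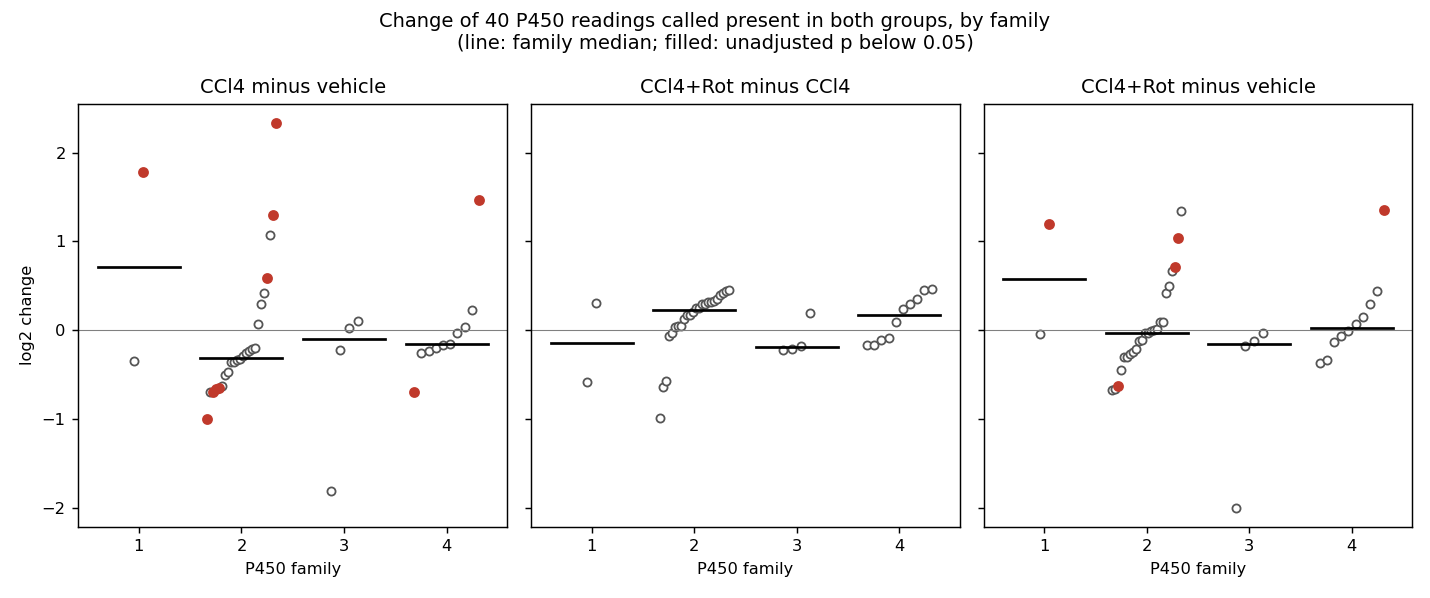
Log2 difference (vertical axis) of the 40 P450 readings called present in both groups, by family (horizontal axis), in the 3 comparisons; lines are family medians over these readings and filled points have an unadjusted limma p below 0.05. The spread within family 2 runs from Cyp2c11 at -0.99 to Cyp2c12 at 2.33 for CCl4 minus vehicle, and no point is filled for CCl4+Rot minus CCl4.

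Cyp2e1, the enzyme that activates CCl4, gave log2 signals of 14.87, 15.04 and 14.94 in vehicle rats. It gave 14.85, 14.94 and 14.06 in CCl4 rats, and 15.04, 15.04 and 15.03 in CCl4+Rot rats. CCl4 replicate 2 lay within the vehicle range, CCl4 replicate 1 just under it and CCl4 replicate 3 below every other array, while the CCl4+Rot arrays lay at the top of the vehicle range. The difference of CCl4 from vehicle was -0.33 ± 0.25 (SE; 95% interval -0.90 to 0.24; limma adjusted p = 0.600). It was -0.16 after quantile normalization and -0.05 without CCl4 replicate 3. CCl4+Rot minus CCl4 was 0.42 ± 0.25 (interval -0.15 to 0.99; limma adjusted p = 0.765), with 0.26 after quantile normalization and 0.14 without CCl4 replicate 3, and the groups did not overlap. The CCl4+Rot difference from vehicle was 0.09 (interval -0.48 to 0.66). All 3 intervals included 0, so neither a gain nor a loss of Cyp2e1 was detectable with these arrays.

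The 5 genes outside the P450s whose signal followed Cyp2e1 most closely over the 9 arrays, among 7029 genes present on all of them, were Ctsa (Pearson r = 0.973), Vwa8, Plg, Nipsnap3b and C3 (r = 0.958). These coefficients are a description over arrays that include the shifted CCl4 replicate 3, and without that array they were 0.378 to 0.574. After quantile normalization the 5 closest were Mrps17 (r = 0.97), Polr1c, Fam76b, Dpf2 and Brf2 (r = 0.95). Without CCl4 replicate 3 the coefficients of these 5 were 0.75 to 0.87.

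Cyp1a2, which oxidizes caffeine and aromatic amines and marks the cells around the central vein, gave 13.81, 13.82 and 13.91 in vehicle rats. It gave 13.36, 13.91 and 13.22 in CCl4 rats and 13.94, 14.16 and 13.33 in CCl4+Rot rats. Both treated groups ran from clearly below to at or above the vehicle values, and the group ranges overlapped in every comparison. Relative to vehicle, CCl4 was at -0.35 ± 0.27 (interval -0.98 to 0.28; -0.20 after quantile normalization and -0.21 without CCl4 replicate 3), CCl4+Rot minus CCl4 was 0.31 ± 0.27, and CCl4+Rot minus vehicle was -0.04 ± 0.27. Cyp2e1 and Cyp1a2, the markers of the set, were both called present on every array.

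Cyp1b1, a dioxin-inducible P450 found mostly outside hepatocytes, gave 6.34, 6.29 and 6.66 in vehicle rats. It gave 7.13, 8.21 and 9.30 in CCl4 rats and 7.45, 7.48 and 7.94 in CCl4+Rot rats. All 6 CCl4-treated rats lay above all vehicle rats. CCl4 minus vehicle was 1.78 ± 0.50, a 3.44-fold difference (limma adjusted p = 0.259; robust fit adjusted p = 0.0696). It was 1.24 without CCl4 replicate 3, its highest array. CCl4+Rot minus vehicle was 1.19 ± 0.50, and CCl4+Rot minus CCl4 was -0.59 ± 0.50, or -0.04 without CCl4 replicate 3. Cyp1a1, the classical dioxin-induced family member, was not called present on any array and is given no fold.

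The most negative and most positive CCl4 minus vehicle values in family 2 were both in the 2C subfamily, in a pair of opposite sex bias. Cyp2c11, the main male-specific P450 of adult rat liver, gave 14.70, 14.95 and 14.98 in vehicle rats, 14.70, 13.01 and 13.94 in CCl4 rats and 14.23, 14.59 and 13.79 in CCl4+Rot rats. CCl4 replicate 1 lay just under the lowest vehicle array and CCl4 replicate 2 was the lowest of all 9. The difference of CCl4 from vehicle was -0.99 ± 0.42 (limma adjusted p = 0.397), -0.81 after quantile normalization and -1.02 without CCl4 replicate 3. The CCl4+Rot difference from vehicle was -0.67 ± 0.42, with no overlap, and CCl4+Rot minus CCl4 was 0.32 ± 0.42.

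Cyp2c12, the steroid sulfate hydroxylase that is specific to female rats, had the opposite sign in these male livers. It gave 11.60, 8.93 and 11.42 in vehicle rats, 13.17, 13.64 and 12.15 in CCl4 rats and 12.10, 12.51 and 11.37 in CCl4+Rot rats, called present on every array. Each CCl4 array lay above each vehicle array, and the CCl4+Rot arrays overlapped both groups. Relative to vehicle, CCl4 was at 2.33 ± 0.76, a 5.04-fold difference (limma adjusted p = 0.305), and 1.47 to 2.81 when single arrays were left out. CCl4+Rot minus CCl4 was -0.99 ± 0.76 and CCl4+Rot minus vehicle was 1.34 ± 0.76. The listed sex-biased genes did not all follow this pair. Among the male-biased Cyp2c11, Cyp2c13, Cyp2a2, Cyp3a2 and Cyp3a18, 4 of 5 had lower means in CCl4 with a median of -0.22 (-0.01 after quantile normalization), and 1 had an unadjusted limma p below 0.05. Of the female-biased Cyp2c12, Cyp2a1 and Cyp3a9, only Cyp2c12 was higher in CCl4.

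**Figure D3:**
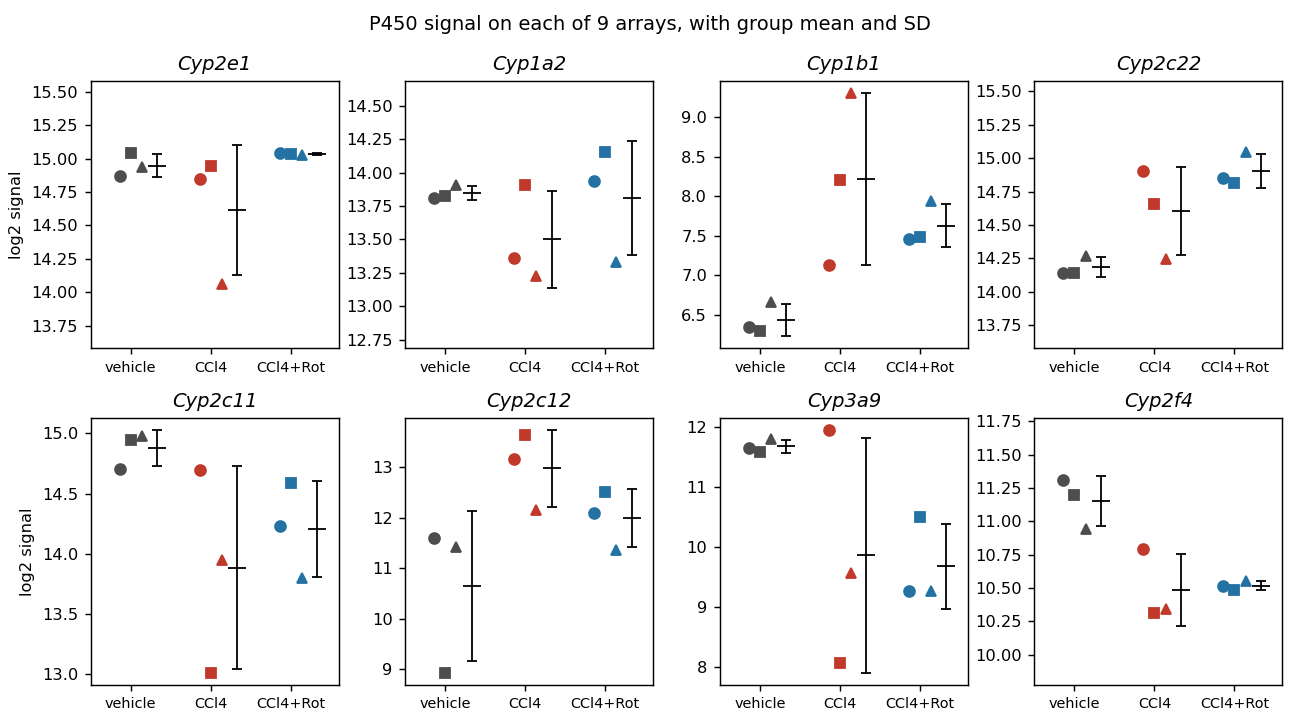
Log2 signal (vertical axes) of 8 P450 readings on each array by group (horizontal axes); circle, square and triangle are the lowest to highest numbered replicate of a group and bars are the group mean and SD. Cyp2c12 and Cyp2c11 differ from vehicle in opposite directions, Cyp1b1 is higher and Cyp2f4 lower on all 6 arrays of CCl4-treated rats, and the triangle of CCl4 in the Cyp2e1 panel is CCl4 replicate 3.

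Cyp2c22, a retinoic acid hydroxylase of hepatocytes, gave 14.14, 14.14 and 14.27 in vehicle rats, 14.90, 14.66 and 14.25 in CCl4 rats and 14.85, 14.81 and 15.05 in CCl4+Rot rats. All CCl4+Rot arrays and CCl4 arrays 1 and 2 lay above all vehicle arrays, and CCl4 replicate 3 lay among them. CCl4+Rot minus vehicle was 0.72 ± 0.20, a 1.64-fold difference (limma adjusted p = 0.363; robust fit adjusted p = 0.0567), and CCl4 minus vehicle was 0.42 ± 0.20. In a robust limma fit without CCl4 replicate 3, chosen after seeing the data, it was the only P450 reading called. There it rose by 0.60 in CCl4 (adjusted p = 0.0330) and by 0.72 in CCl4+Rot (adjusted p = 0.00985). This 1 call was 2.22% of the 45 readings in each comparison. The fit called 1.01% and 1.18% of all probe sets, and 2.16% and 2.04% of those present on every array. That fit called 0.0354% of all probe sets, and no P450, for CCl4+Rot minus CCl4. It assumes that CCl4, left with 2 arrays, varies like the other groups.

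The rest of the 2C readings were bright and differed little. Cyp2c6v1, Cyp2c7, Cyp2c13 and Cyp2c23 (an arachidonic acid epoxygenase) gave CCl4 minus vehicle of -0.24, -0.32, -0.21 and -0.47, and quantile normalization left -0.05, -0.13 and -0.26 for Cyp2c6v1, Cyp2c7 and Cyp2c23. Cyp2c23 gave 14.48, 14.64 and 14.60 in vehicle rats, 14.56, 13.93 and 13.82 in CCl4 rats and 14.32, 14.36 and 14.25 in CCl4+Rot rats. All its CCl4+Rot arrays lay below all vehicle arrays, a difference of -0.27 ± 0.22.

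The 2D readings, enzymes that oxidize many basic drugs, were all lower in CCl4. Their median CCl4 minus vehicle was -0.64 over 4 readings, -0.50 after quantile normalization and -0.44 without CCl4 replicate 3. The joint reading Cyp2d1/Cyp2d5 gave 14.03, 14.44 and 14.62 in vehicle rats, 14.003, 13.71 and 13.29 in CCl4 rats and 13.96, 14.18 and 14.21 in CCl4+Rot rats. Its CCl4 arrays lay below all vehicle arrays, CCl4 replicate 1 only just, and the difference was -0.69 ± 0.24 (limma adjusted p = 0.335), or -0.52 after quantile normalization and -0.50 without CCl4 replicate 3. Cyp2d3 gave 14.16, 14.46 and 14.35, then 14.05, 13.57 and 13.39, then 14.19, 13.95 and 13.93 in the same order of groups. Its CCl4 minus vehicle was -0.66 ± 0.22 (limma adjusted p = 0.309), or -0.48 after quantile normalization and -0.51 without CCl4 replicate 3. Cyp2d2 and Cyp2d4 were at -0.29 and -0.63. CCl4+Rot minus CCl4 was 0.45, 0.17, 0.35 and -0.03 for Cyp2d1/Cyp2d5, Cyp2d2, Cyp2d3 and Cyp2d4, with group ranges that overlapped in each. A second, dimmer probe set of Cyp2d4, called present on all 9 arrays, disagreed with the brighter one. It gave 8.29, 8.56 and 8.41 in vehicle rats, 7.70, 7.46 and 7.73 in CCl4 rats and 8.42, 8.16 and 7.92 in CCl4+Rot rats. Its CCl4 arrays lay below all arrays of both other groups, at -0.79 ± 0.19 against vehicle (limma adjusted p = 0.231) and with CCl4+Rot minus CCl4 at 0.54 ± 0.19 (limma adjusted p = 0.724).

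The 2A and 2B readings present on every array lay between -0.35 and 0.07 for CCl4 minus vehicle. Cyp2a1 and Cyp2a2, testosterone hydroxylases, were at -0.26 and -0.35 for CCl4 minus vehicle and at -0.12 and -0.21 after quantile normalization. Cyp2b1/Cyp2b2, the P450s that phenobarbital induces through CAR, gave 10.40 to 11.14 in vehicle rats, 10.77 to 11.09 in CCl4 rats and 10.68 to 10.94 in CCl4+Rot rats. The differences were 0.07, -0.06 and 0.00 in the 3 comparisons, each with an SE of 0.23. Cyp2b3 gave 14.42, 14.50 and 14.52 in vehicle rats, 14.45, 14.45 and 13.94 in CCl4 rats and 14.49, 14.62 and 14.62 in CCl4+Rot rats. Every CCl4+Rot array of Cyp2b3 lay above every CCl4 array, but CCl4+Rot minus CCl4 was 0.12 without CCl4 replicate 3, against 0.29 with it. Cyp2b21 was detected on a single array, of a CCl4 rat, and its groups overlapped. The CCl4 minus vehicle value of 0.91 (limma adjusted p = 0.626) was 0.41 after quantile normalization and 0.13 without vehicle replicate 4, so no fold is given.

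Among the single-gene subfamilies of family 2, Cyp2f4 stood lower in both CCl4-treated groups. Cyp2f4, of the subfamily that oxidizes naphthalene, gave 11.31, 11.19 and 10.94 in vehicle rats, 10.79, 10.31 and 10.34 in CCl4 rats and 10.52, 10.49 and 10.55 in CCl4+Rot rats. CCl4 minus vehicle was -0.67 ± 0.19 (limma adjusted p = 0.269; robust fit adjusted p = 0.0590). The CCl4+Rot difference from vehicle was -0.63 ± 0.19 and CCl4+Rot minus CCl4 was 0.04 ± 0.19. Leaving out single arrays kept CCl4 minus vehicle between -0.82 and -0.58.

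Cyp2u1, which hydroxylates long-chain fatty acids, had higher means in both CCl4-treated groups. It gave 7.61, 7.06 and 7.37 in vehicle rats, 7.68, 8.41 and 7.73 in CCl4 rats and 8.27, 8.40 and 8.48 in CCl4+Rot rats, and was present on 8 of the 9 arrays. The difference of CCl4 from vehicle was 0.59 ± 0.25 and only 0.23 after quantile normalization. CCl4+Rot minus vehicle was 1.03 ± 0.25, a 2.05-fold difference (limma adjusted p = 0.280), and 0.89 after quantile normalization. CCl4+Rot minus CCl4 was 0.44 ± 0.25, with overlapping groups.

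Cyp2s1, a dioxin-inducible P450 of epithelia, gave 5.99, 5.50 and 6.60 in vehicle rats, 7.03, 6.39 and 8.57 in CCl4 rats and 6.90, 6.64 and 6.54 in CCl4+Rot rats. Its CCl4 minus vehicle of 1.30 ± 0.55 was 0.68 without CCl4 replicate 3, the highest array of this dim reading. The arachidonic acid epoxygenases Cyp2j3 and Cyp2j4 were at -0.70 ± 0.35 and -0.35 ± 0.24 for CCl4 minus vehicle. For CCl4+Rot minus CCl4 they were at 0.40 ± 0.35 and 0.33 ± 0.24. A second, dimmer probe set of Cyp2j3, called present on all 9 arrays, gave -0.49 ± 0.28 and 0.16 ± 0.28 in these 2 comparisons. Without CCl4 replicate 3, CCl4+Rot minus CCl4 was 0.22 on the brighter and -0.08 on the dimmer probe set of Cyp2j3. Cyp2t1 was at -0.50 for CCl4 minus vehicle and at -0.45 for CCl4+Rot minus vehicle, with no overlap in either. Cyp2j10 was present on 7 arrays and Cyp2g1 on 3, 1 in each group, with SEs of 0.54 and 0.70 and overlapping groups in every comparison.

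Family 3 held 3 bright readings and 1 dimmer reading that differed widely between rats. Cyp3a9, a steroid hydroxylase that is female-biased in rat liver, gave 11.64, 11.59 and 11.80 in vehicle rats, 11.95, 8.07 and 9.57 in CCl4 rats and 9.27, 10.50 and 9.27 in CCl4+Rot rats. CCl4 replicate 1 was the highest of all 9 arrays and CCl4 replicate 2 the lowest, while all CCl4+Rot arrays lay below all vehicle arrays. The CCl4+Rot difference from vehicle was -2.00 ± 0.89, a 3.99-fold lower level (limma adjusted p = 0.620). Relative to vehicle, CCl4 was at -1.82 ± 0.89, and -0.92 to -2.86 when single arrays were left out. Cyp3a2, the male-biased testosterone hydroxylase, and Cyp3a23/3a1, which responds to PXR ligands, were at -0.22 and 0.03 for CCl4 minus vehicle. Cyp3a18 was at 0.10, and all 3 lay between -0.01 and 0.29 after quantile normalization. For CCl4+Rot minus CCl4, Cyp3a2, Cyp3a18 and Cyp3a23/3a1 were at 0.19, -0.22 and -0.21. Without CCl4 replicate 3, these 3 were at -0.08, 0.39 and 0.27 for CCl4 minus vehicle. For CCl4+Rot minus CCl4 they were then at 0.05, -0.51 and -0.45.

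In family 4 the most negative and most positive CCl4 minus vehicle values were those of the 4F readings Cyp4f4 and Cyp4f17. The fatty acid hydroxylases Cyp4a1, Cyp4a2, Cyp4a3 and Cyp4a8, targets of PPAR-alpha, lay between -0.21 and 0.23 for CCl4 minus vehicle, with SEs of 0.36 to 0.55. Cyp4a1 gave 13.08, 12.99 and 12.96 in vehicle rats, 13.92, 13.39 and 12.41 in CCl4 rats and 13.06, 12.60 and 13.82 in CCl4+Rot rats, so both treated groups spread to each side of a narrow vehicle group. Its CCl4 minus vehicle of 0.23 was 0.37 after quantile normalization and 0.64 without CCl4 replicate 3. Cyp4f4, of the subfamily that hydroxylates leukotrienes and long-chain fatty acids, gave 12.62, 12.85 and 12.69, then 12.47, 12.01 and 11.60, then 12.53, 12.44 and 12.17 in vehicle, CCl4 and CCl4+Rot rats. Both treated groups lay below all vehicle arrays, with CCl4 minus vehicle at -0.69 ± 0.24 (limma adjusted p = 0.335) and CCl4+Rot minus vehicle at -0.34 ± 0.24.

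Cyp4f17 had the opposite sign within the same subfamily. It gave 5.89, 6.48 and 5.45 in vehicle rats, 7.70, 6.83 and 7.71 in CCl4 rats and 7.62, 7.04 and 7.24 in CCl4+Rot rats, and was called present on 1, 2 and 3 arrays of these groups. All 6 CCl4-treated rats lay above all vehicle rats. CCl4 minus vehicle was 1.47 ± 0.35, a 2.77-fold difference (limma adjusted p = 0.231; robust fit adjusted p = 0.0901). It was 1.07 after quantile normalization and 1.32 without CCl4 replicate 3. CCl4+Rot minus vehicle was 1.36 ± 0.35 and CCl4+Rot minus CCl4 was -0.11 ± 0.35. Cyp4f1, Cyp4f6 and Cyp4b1 lay between -0.25 and -0.16 for CCl4 minus vehicle. Cyp4f6 gave 10.99, 11.18 and 10.87 in CCl4 rats and 11.35, 11.38 and 11.21 in CCl4+Rot rats, with no overlap and a difference of 0.30 ± 0.15, or 0.23 without CCl4 replicate 3. Cyp4v3 was at -0.16 ± 0.21 for CCl4 minus vehicle and at 0.45 ± 0.21 for CCl4+Rot minus CCl4. A second, dimmer probe set of Cyp4v3, called present on 8 arrays, gave -0.95 ± 0.60 and 1.26 ± 0.60, with overlapping groups in both. Cyp4f5 was detected on a single array, of a CCl4 rat, and its groups overlapped. Its CCl4 minus vehicle of 0.73 (limma adjusted p = 0.613) was 0.28 after quantile normalization and 0.25 without CCl4 replicate 2, so no fold is given.

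The electron donors and heme pathway were read from lists of other genes, and none of their genes passed the main limma test in any comparison. Of 6 P450 partners, 4 had lower means in CCl4 than in vehicle, with a median of -0.20 (0.03 after quantile normalization). Por, the reductase that feeds every microsomal P450, gave 12.01, 12.50 and 12.62 in vehicle rats, 11.57, 12.00 and 10.39 in CCl4 rats and 11.48, 11.60 and 11.49 in CCl4+Rot rats. All 6 CCl4-treated rats lay below all vehicle rats, CCl4 replicate 2 only just. The difference of CCl4 from vehicle was -1.06 ± 0.40 (limma adjusted p = 0.358), or -0.59 without CCl4 replicate 3, and CCl4+Rot minus vehicle was -0.85 ± 0.40. Of 12 measured genes of heme supply and breakdown, 10 had lower means in CCl4, with a median of -0.14 (-0.04 after quantile normalization). Hmox1, the heme-degrading enzyme, gave 10.11, 9.44 and 9.22 in vehicle rats, 10.26, 10.70 and 10.72 in CCl4 rats and 10.22, 10.56 and 10.55 in CCl4+Rot rats. All 6 treated rats lay above the vehicle rats, with CCl4 minus vehicle at 0.97 ± 0.27 (limma adjusted p = 0.260). Alas1, the rate-limiting enzyme of heme synthesis, was at -0.33 ± 0.36 for CCl4 minus vehicle and 0.75 ± 0.36 for CCl4+Rot minus CCl4.

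All 10 detected genes among 12 xenobiotic receptors and their partners had lower means in CCl4 than in vehicle, with a median of -0.47 (-0.67 after quantile normalization), and Ahrr and Ppara were not called present on any array. Nr1i2, which encodes PXR, the main inducer of family 3, gave 11.13, 11.59 and 11.68 in vehicle rats, 10.44, 11.15 and 10.51 in CCl4 rats and 10.72, 10.69 and 10.09 in CCl4+Rot rats. All its CCl4+Rot arrays lay below all vehicle arrays, at -0.97 ± 0.29 (limma adjusted p = 0.390). Nr1i3, which encodes CAR, was at -0.83 ± 0.50 in CCl4 and -1.04 ± 0.50 in CCl4+Rot against vehicle. Nr3c1, the glucocorticoid receptor, gave 11.99, 11.81 and 11.67 in vehicle rats, 11.21, 10.87 and 11.09 in CCl4 rats and 11.64, 12.03 and 11.36 in CCl4+Rot rats. The CCl4 arrays lay below both other groups, with CCl4 minus vehicle at -0.77 ± 0.22 and CCl4+Rot minus CCl4 at 0.62 ± 0.22. Rxra, the shared partner of PXR and CAR, gave 7.54, 8.19 and 8.17 in vehicle rats, 7.95, 8.62 and 7.14 in CCl4 rats and 7.72, 3.68 and 5.40 in CCl4+Rot rats, and was called present on 2, 2 and 0 arrays of these groups. For CCl4 minus vehicle its -0.06 became 0.32 without CCl4 replicate 3. Its mean signal was 5.16-fold lower in CCl4+Rot than in vehicle rats (limma adjusted p = 0.551). It was 4.94-fold lower than in CCl4 rats (limma adjusted p = 0.749), with groups that overlapped in both. As no CCl4+Rot array was called present, neither value is a measured fold or a minimum. When single arrays were left out these differences ran from -3.43 to -1.41 and from -3.36 to -1.34 on the log2 scale. Arnt, the partner of the aryl hydrocarbon receptor, was at -1.45 ± 0.82 for CCl4 minus vehicle (limma adjusted p = 0.503), with 3.76 on CCl4 replicate 3, and at -0.38 without that array.

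Of 11 measured hepatocyte transcription factors of P450 genes, 10 had lower means in CCl4 than in vehicle (median -0.41, or -0.25 after quantile normalization), and 8 had higher means in CCl4+Rot than in CCl4 (median 0.21). Dbp, a factor of the circadian clock output, gave 11.78, 11.92 and 11.66 in vehicle rats, 10.20, 10.84 and 9.28 in CCl4 rats and 11.17, 11.46 and 11.35 in CCl4+Rot rats. Its CCl4 minus vehicle of -1.68 ± 0.36 passed the robust fit (adjusted p = 0.0211) but not the main limma fit (adjusted p = 0.218). CCl4+Rot minus CCl4 was 1.22 ± 0.36 (limma adjusted p = 0.710), or 0.81 without CCl4 replicate 3. The hour at which livers were taken was not given in the sources used here. Cebpa gave 12.37, 12.08 and 12.28 in vehicle rats, 11.45, 11.27 and 11.92 in CCl4 rats and 12.62, 12.47 and 12.49 in CCl4+Rot rats. The CCl4 arrays lay below both other groups, by -0.70 ± 0.21 against vehicle, with CCl4+Rot minus CCl4 at 0.98 ± 0.21 (limma adjusted p = 0.608). Onecut1 encodes HNF6, whose core letters stand in 5 P450 windows, those of Cyp1a2, Cyp2c12, Cyp2c13, Cyp2c7 and Cyp4f1. Onecut1 gave 11.16, 9.42 and 11.30, then 9.75, 8.13 and 9.47, then 11.63, 12.46 and 10.75. Its mean was lower in CCl4 than in vehicle rats, with overlapping groups, where the mean of Cyp2c12 was higher. A link between Onecut1 and these genes was not tested. Every CCl4+Rot array of Onecut1 lay above every CCl4 array, at 2.501 ± 0.69 (limma adjusted p = 0.650).

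**Figure D4:**
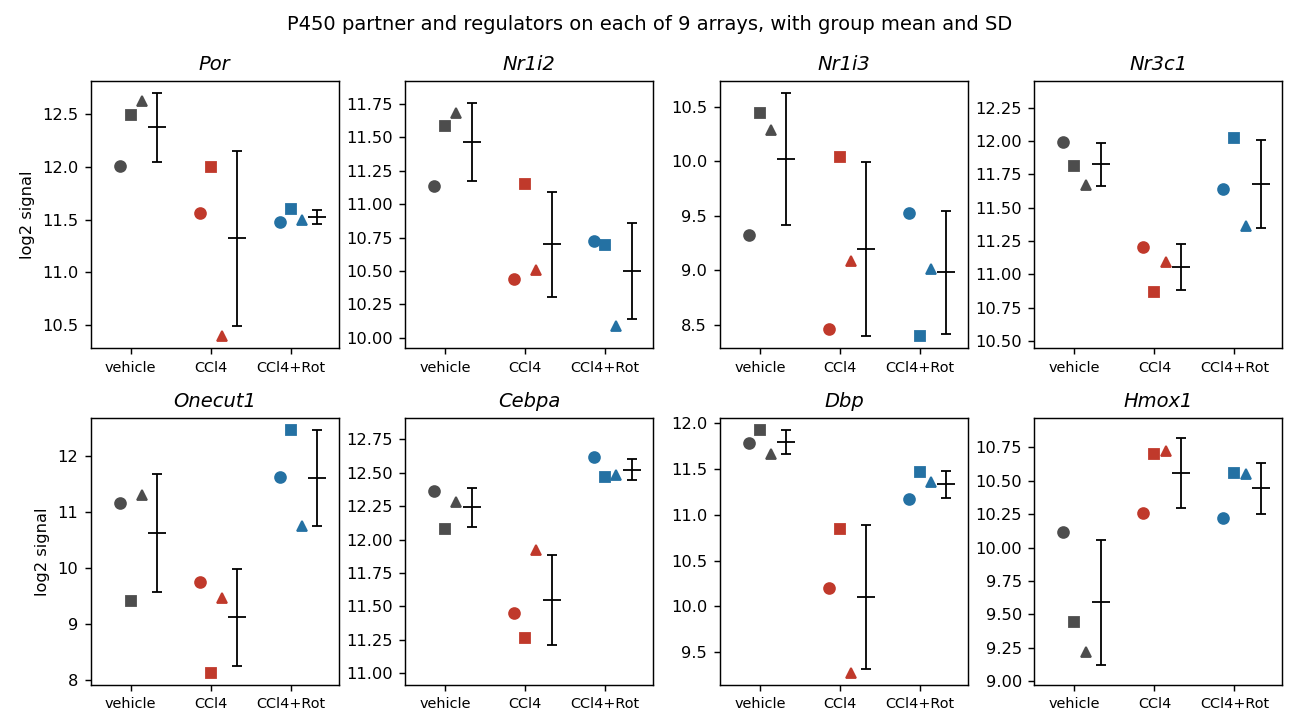
Log2 signal (vertical axes) of Por, Hmox1 and 6 transcription factors on each array by group (horizontal axes); symbols are the replicates of a group in order of number and bars are the group mean and SD. Nr3c1, Cebpa and Dbp are lowest in CCl4 rats. Por is lower on all 6 arrays of CCl4-treated rats than on every vehicle array, and Nr1i2 lies below every vehicle array in CCl4+Rot rats and overlaps them in CCl4 rats.

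Of 9 genes of the growth hormone pathway that sets the sex bias, 4 had higher and 5 lower means in CCl4 than in vehicle. Ghr, the growth hormone receptor, gave 13.31, 13.52 and 13.51 in vehicle rats, 13.15, 12.62 and 12.77 in CCl4 rats and 13.13, 13.05 and 13.08 in CCl4+Rot rats. Both treated groups lay below all vehicle arrays, with CCl4 minus vehicle at -0.60 ± 0.18 (limma adjusted p = 0.286) and CCl4+Rot minus vehicle at -0.36 ± 0.18.

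Marker lists of liver cell types differed alongside the P450 readings, and their part in them was not tested. Of 9 measured hepatocyte markers, 8 had lower means in CCl4 than in vehicle (median -0.14), but 0.04 was the median after quantile normalization. Their summed signal on a linear scale was 265770 to 302350 in vehicle, 207280 to 296070 in CCl4 and 284940 to 306230 in CCl4+Rot rats. All 10 periportal markers had lower means in CCl4 (median -0.45, or -0.24 after quantile normalization), and of 9 pericentral markers outside the P450s 5 were higher and 4 lower (median 0.19, or 0.08 after quantile normalization and -0.12 without CCl4 replicate 3). Sds, a periportal enzyme of serine breakdown, was at -1.99 ± 0.68 for CCl4 minus vehicle (limma adjusted p = 0.322), or -1.30 without CCl4 replicate 3. Oat, a pericentral enzyme, gave 13.16, 12.61 and 12.70 in vehicle rats against 11.70, 11.62 and 11.29 in CCl4 rats, and its CCl4 minus vehicle of -1.29 ± 0.35 passed the robust fit (adjusted p = 0.0493) but not the main limma fit (adjusted p = 0.253). All 10 stellate cell and myofibroblast markers had higher means in both CCl4-treated groups, with medians of 1.07 in CCl4 and 1.43 in CCl4+Rot against vehicle. Their summed signal was 8836 to 14019 in vehicle, 19972 to 34800 in CCl4 and 30372 to 37897 in CCl4+Rot rats, and 9 of the 10 were called present on every array. Col1a1 was at 2.29 ± 0.36 in CCl4 (robust fit adjusted p = 0.00502) and at 2.74 ± 0.36 in CCl4+Rot (robust fit adjusted p = 0.00208) against vehicle. Neither difference passed the main limma test. Of 7 macrophage markers measured, 4 were higher and 3 lower in CCl4 and all 7 higher in CCl4+Rot than in vehicle. Lyz2, of macrophages, was at 1.22 ± 0.22 in CCl4 (robust fit adjusted p = 0.00813) and did not pass the main limma test. Of 7 endothelial markers, 2 were higher and 5 lower in CCl4. All 4 detected cholangiocyte markers were higher in CCl4 (median 0.71), with Krt7 and Muc1 on no array, and their summed signal was 894 to 1055 in vehicle, 2595 to 5392 in CCl4 and 1261 to 2427 in CCl4+Rot rats. Of 4 detected T and NK cell markers, 3 were higher in CCl4, with Cd3d, Cd8a and Cd4 on no array. Their median of 0.51 was 0.18 after quantile normalization and -0.08 without CCl4 replicate 3, and 1 of them was present on every array.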

How the data were processed

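Frozen liver RNA of 9 rats was hybridised to Affymetrix rat genome expression arrays, 1 per rat. The authors deposited log2 signals with detection calls, and MAS5 and affy are named in the submitters' processing notes. On the deposited values each array had a mean of 500 after trimming 2% at each end on the linear scale. A genome build was not given in the sources used here. The deposited log2 values were fitted without further normalization with limma 3.58.1 in R 4.3.3 (statmod 1.5.0) over 31042 probe sets and all 3 groups, with 57 control probe sets left out and Benjamini-Hochberg adjustment. A call needed an adjusted p below 0.05 and 1.5-fold. The fits were tested on simulated data. Precision is limited by the 3 arrays of each group.

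A gene was read by its brightest probe set. For a gene present in 1 group only, the difference of mean signals was not read as a measured fold, and one present in neither got no fold. Members and lists were chosen with earlier results of these data known. Named in full were Cyp2e1, Cyp1a2, members called by limma or its robust fit and the members of each family with the largest differences or highest signal, with list genes among those of large differences and the 5 genes most correlated with Cyp2e1. Alternatives were quantile normalization, median centring, filters on low signal, only the groups compared, and robust variances with a trend over the signal level. The others were the methods' t-test, other fold thresholds, other probe set rules, a replicate block and leaving out each array. Array weights, and the robust fit without CCl4 replicate 3, were added after seeing the data.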

Additional observations from a re-analysis of the deposited data

How the results depend on the processing

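No P450 reading was called in any comparison by the main limma fit or by any alternative that adjusted p-values, except Cyp2c22, called in each of CCl4 minus vehicle and CCl4+Rot minus vehicle (1 reading each) by the robust fit without CCl4 replicate 3, and the methods' t-test without adjustment called 4 and 6. For CCl4 minus vehicle, median centring moved the medians of families 1 to 4 to 0.36, -0.65, -0.46 and -0.51, and Cyp2e1 to -0.69. The 10 readings at an unadjusted p below 0.05 became 5 with only the groups compared, 16 with robust variances, 5 with the methods' t-test and 16 with array weights, and ranged from 4 (without vehicle replicate 4) to 16 (without CCl4 replicate 1) when single arrays were left out, with 6 without vehicle replicate 5 and 5 without CCl4 replicate 2. For CCl4+Rot minus CCl4 the 0 such readings became 1 with median centring, without the lowest 30% of probe sets, with those present on at least 3 arrays, with the methods' t-test and with the mean of probe sets, 5 with robust variances, 2 with array weights and 2 with the robust fit without CCl4 replicate 3, and ranged from 0 to 8 (without CCl4 replicate 1). The family 3 median of this comparison ranged from -0.39 to 0.16 (without CCl4 replicate 1). For CCl4+Rot minus vehicle the 5 such readings became 3 with median centring, 8 with only the groups compared and 9 with the robust fit without CCl4 replicate 3. The cause was not tested. Vehicle and CCl4+Rot rats share replicate numbers 4 and 5, and vehicle and CCl4 rats share 3, but these are different animals, and the replicate block (consensus correlation -0.0327) left the counts at 10, 0 and 5 and Cyp2e1 at -0.33, 0.42 and 0.09. With 3 arrays a group, differences within the spread between rats were not detectable, and readings near the detection limit are the least precise.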

Other observations

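Among P450 genes outside families 1 to 4, most of which make sterols, bile acids or steroids, 12 of 16 measured were detected, and Cyp11a1, Cyp11b1, Cyp21a1 and Cyp46a1 were present on no array. Their median CCl4 minus vehicle was 0.36 (0.11 after quantile normalization, -0.05 without CCl4 replicate 3), with 7 higher and 5 lower, and no gene passed the main limma test. Cyp51, a demethylase of cholesterol synthesis, gave 11.89, 11.20 and 12.12 in vehicle rats, 13.05, 12.98 and 12.83 in CCl4 rats and 11.80, 12.11 and 12.71 in CCl4+Rot rats. Each CCl4 array lay above all arrays of both other groups. CCl4 minus vehicle was 1.22 ± 0.31 (SE; limma adjusted p = 0.248, robust fit adjusted p = 0.0361), and CCl4+Rot minus CCl4 was -0.74 ± 0.31 (limma adjusted p = 0.750).

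Cyp7a1, the rate-limiting enzyme of bile acid synthesis, gave 12.71, 11.96 and 12.20 in vehicle rats, 13.001, 13.57 and 12.99 in CCl4 rats and 12.86, 12.96 and 13.54 in CCl4+Rot rats. All 6 CCl4-treated rats lay above all vehicle rats, at 0.90 ± 0.30 in CCl4 and 0.83 ± 0.30 in CCl4+Rot (limma adjusted p = 0.309 and 0.495). Cyp26a1, which clears retinoic acid, was at 1.48 ± 0.40 in CCl4 and 1.25 ± 0.40 in CCl4+Rot against vehicle (limma adjusted p = 0.252 and 0.432), present on 2 vehicle arrays and all others.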
